A study of Homo sapiens with 9 samples.

Results

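The peroxisome proliferator-activated receptors (PPARs), their retinoid X receptor (RXR) partners and the coregulators that bind them were followed through exposure of HepG2 cells to a PPARα ligand. The set was given as 9 gene symbols: the receptors PPARA, PPARD and PPARG, the partners RXRA and RXRB, the corepressor NCOR1, and the coactivators NCOA1, NCOA2 and MED1. All probe sets annotated with exactly 1 of these symbols were taken, which gave 31 probe sets for 8 genes out of 41091 single-symbol probe sets for 19775 genes; NCOR1 was not analysed here. PPARA was read by 9 probe sets, PPARD, NCOA1, NCOA2 and MED1 by 4 each, RXRB by 3, RXRA by 2 and PPARG by 1.

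HepG2 is an established human hepatoma line. Of the 9 Affymetrix 3′ expression arrays, 3 came from cells given the solvent DMSO (vehicle), 3 from cells given 100 nM GW7647, a synthetic PPARα agonist, for 6 h, and 3 from cells given 100 nM GW7647 for 24 h. In all groups the medium lacked phenol red, and cells were passaged 1 day before they were treated. Both times were set against the same vehicle arrays. How long these cells stayed in vehicle is not given in the labels, so ligand exposure and time in culture cannot be told apart. The labels do not say whether replicates were separate cultures, so p-values reflect the spread among these arrays alone, and that spread may be technical; 3 arrays per group limit the precision of every value. The line was checked against liver markers: all 11 measured markers, among them albumin (ALB) and α-fetoprotein (AFP), had a mean signal above the median gene, with FOXA2 at percentile 82.0 of all genes, TTR at 84.3 and the other 9 at 98.0 or higher, whereas 14 of 17 markers of other liver cells, among them PTPRC of leukocytes and CDH5 of endothelium, lay below the median gene. The 3 above it were the endothelial marker PECAM1 at percentile 66.7, COL1A1 of stromal cells at 70.2 and KRT7 of bile duct cells at 59.7.

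PPARs are nuclear receptors that fatty acids and synthetic ligands activate. PPARα is best known in liver, where it drives genes of fatty acid oxidation, while PPARδ is widespread and PPARγ is the regulator of fat cell formation. Each binds DNA only as a dimer with an RXR. Without ligand the dimer can hold corepressors such as NCoR, and with ligand it recruits coactivators, among them the p160 proteins encoded by NCOA1 and NCOA2 and the Mediator subunit MED1, which bridges the receptor to RNA polymerase II.

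The receptor and 1 of its partners moved together early on. At 6 h, PPARA and RXRA fell to about the same extent, each on its probe set of highest mean signal. The second RXRA probe set did not pass and overlapped vehicle. The other 6 measured genes did not pass the test. PPARA and RXRA did not differ detectably from vehicle at 24 h. RXRB had risen slightly on its reported probe set, a call lost in 8 of the 9 fits that left out 1 array. PPARA, RXRA, RXRB and NCOA2 were higher at 24 h than at 6 h. For NCOA2 this call was lost in 5 of the 9 fits that left out 1 array. The stretch just upstream of PPARA and RXRA is shown because these are the members that moved together, with that of PPARD for comparison, which like PPARG did not pass the test at either time. The sequences are RefSeq's for GRCh38.p14, 250 bases 5′ to 3′ on the plus strand, ending 1 base before the annotated start of the gene; capitals mark GGGCGG or its reverse complement CCGCCC, the GC box that Sp-family factors bind.
PPARA, chr22:46150276-46150525: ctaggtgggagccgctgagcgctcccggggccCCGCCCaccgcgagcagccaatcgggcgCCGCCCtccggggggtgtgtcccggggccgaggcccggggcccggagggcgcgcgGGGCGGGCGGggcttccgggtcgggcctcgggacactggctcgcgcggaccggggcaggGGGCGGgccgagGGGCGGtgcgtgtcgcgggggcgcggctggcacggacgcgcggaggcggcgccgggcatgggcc
RXRA, chr9:134326205-134326454: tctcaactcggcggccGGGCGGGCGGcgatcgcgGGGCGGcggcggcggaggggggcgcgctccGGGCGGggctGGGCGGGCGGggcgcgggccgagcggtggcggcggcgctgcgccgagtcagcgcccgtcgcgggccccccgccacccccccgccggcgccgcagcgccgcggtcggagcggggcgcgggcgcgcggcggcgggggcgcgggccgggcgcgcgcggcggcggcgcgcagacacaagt
PPARD, chr6:35342308-35342557: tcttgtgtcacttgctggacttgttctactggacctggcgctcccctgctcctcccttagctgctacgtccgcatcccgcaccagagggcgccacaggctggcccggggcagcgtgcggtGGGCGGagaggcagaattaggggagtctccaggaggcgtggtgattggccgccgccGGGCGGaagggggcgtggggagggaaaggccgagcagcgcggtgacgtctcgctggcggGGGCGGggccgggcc

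The PPARA and RXRA windows were 84.4% and 89.2% G or C, against a median of 58% over all 35116 windows of this length, and each held 6 GC boxes, counting overlapping ones on both strands. In its window before the gene start, PPARD held 3 GC boxes. NCOA1, which did not pass the test, held 10 there, in 250 bases that were 87.2% G or C. Of all windows, 42.6% held at least 1. Whether GC boxes bear on the fall of PPARA and RXRA was not tested. In its consensus form, the PPAR response element is a direct repeat of AGGTCA with 1 base between the copies. That repeat (AGGTCA, then any base, then AGGTCA), searched on both strands, was in none of the members' windows. NCOA2 had no window in this search. The repeat was in 0.0171% of all windows, so its absence here carries little information. Inexact copies, and bases beyond these windows, were not searched. A single AGGTCA or its reverse complement TGACCT was in 12.1% of all windows; the windows of PPARA, RXRA and PPARD did not hold these letters, and the PPARG window before the gene start, 44.8% G or C with 0 GC boxes, held 2 copies. CACGTG, an E box, was in 6.34% of all windows and in none of the members'. MED1 and RXRB, whose windows before the gene start were 50.4% and 53.6% G or C, held no GC box there.

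Among the receptors, PPARA, which encodes the target of the ligand, had the clearest values. Levels are log2 signals as deposited, and the reported probe set of a gene is the one with the highest mean over the 9 arrays. PPARA (223437_at) read 8.46, 8.41 and 8.60 on the vehicle arrays, 7.91, 7.85 and 7.87 at 6 h, and 8.41, 8.48 and 8.41 at 24 h. The 3 arrays at 6 h lay well below all others, and the 24 h arrays lay within the vehicle range or just under it. The means were 8.49 ± 0.096, 7.88 ± 0.026 and 8.43 ± 0.043 (SD, n = 3 arrays).

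Changes are log2 differences between group means ± SE from limma, with p-values adjusted by Benjamini-Hochberg over all 19775 genes and called under 0.05. PPARA fell by 0.61 ± 0.061 at 6 h (adjusted p = 0.000331). These are bulk samples, in which fewer cells expressing a gene and less RNA per cell cannot be told apart. At 24 h it was -0.057 ± 0.061 from vehicle (adjusted p = 0.655), with a 95% interval of -0.19 to 0.076. It was 0.55 ± 0.061 higher at 24 h than at 6 h (adjusted p = 0.000215), a comparison that shares the 6 h arrays with the fall. At 6 h, 2 of the 8 members fell and 0 rose, where 3.54% of all genes passed, 1.91% lower and 1.64% higher. Over all 9 arrays, the genes whose log2 signals followed PPARA most closely, among the 9888 at or above the median signal and outside the set, were CERS2 (Pearson r = 0.991), ANKRD10 (0.987) and KLB (0.983). These 3 are a description over 9 arrays that fall into 3 treatment groups. Their own 6 h changes were -0.25, -0.62 and -0.37, and at 24 h they were -0.031, -0.025 and -0.013 from vehicle.

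**Figure D1:**
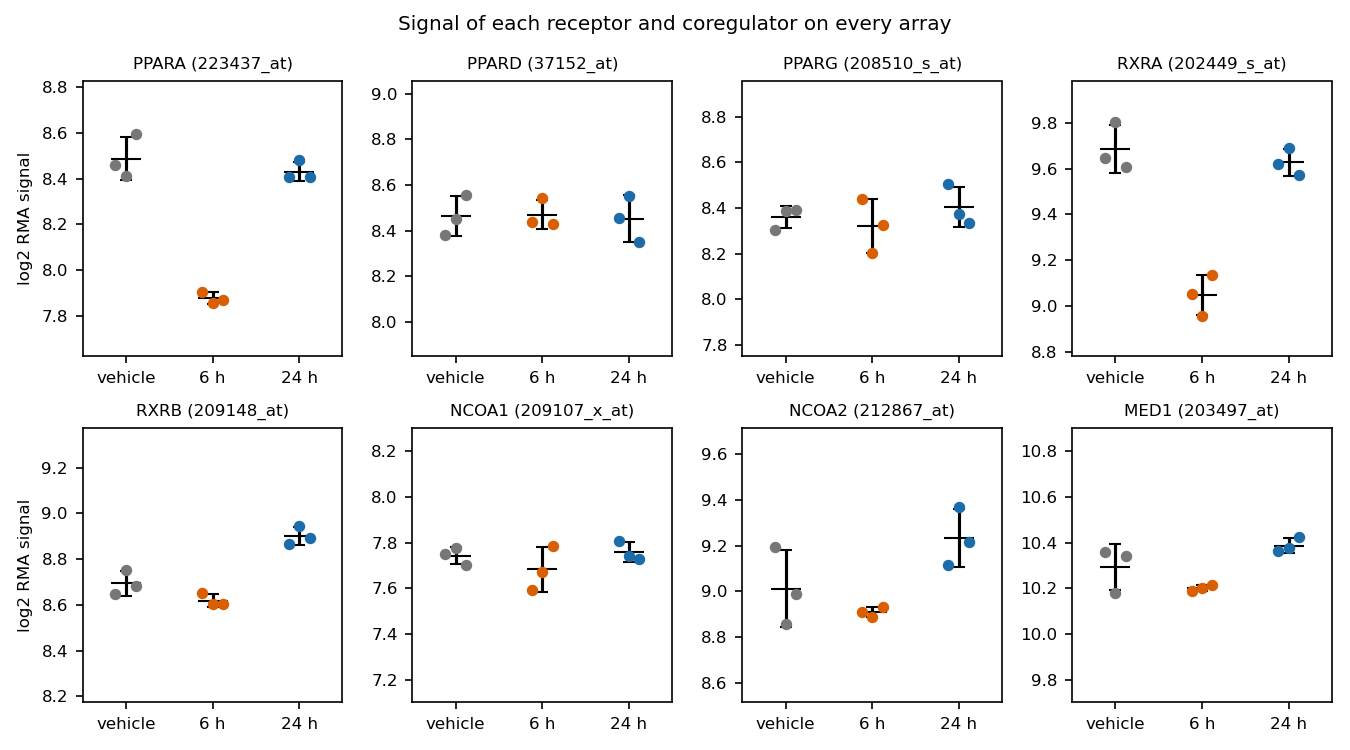
Log2 RMA signal (vertical axis) of the reported probe set of each of the 8 measured genes in vehicle, 6 h and 24 h arrays; points are single arrays, the long tick is the mean and the bar the SD over 3 arrays, and every panel spans the same 1.2 log2 units. PPARA and RXRA drop at 6 h and lie near vehicle at 24 h, while PPARD and PPARG overlap in all groups.

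In a fit of all 41091 probe sets, adjusted over them, 5 of the 9 PPARA probe sets fell at 6 h, and the changes of the 9 ran from -0.74 to -0.0098. The largest was 223438_s_at, which read 8.12, 8.21 and 8.36 in vehicle, 7.53, 7.38 and 7.58 at 6 h and 8.08, 8.10 and 8.02 at 24 h. All its 6 h arrays lay below all its vehicle arrays, and so did its 24 h arrays, although the 24 h change of -0.17 did not pass (adjusted p = 0.273). 226978_at read 8.06, 7.98 and 7.88 in vehicle, 7.32, 7.04 and 7.46 at 6 h and 7.83, 7.99 and 7.84 at 24 h, and 244689_at read 7.30, 7.15 and 7.30, then 6.82, 6.77 and 6.67, then 7.13, 7.31 and 7.33. These 2 also lay apart from vehicle at 6 h and overlapped it at 24 h.

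The fall of 206870_at, by 0.37 ± 0.079, was the least secure of the 5 (adjusted p = 0.0368). Leaving out a single array ended this call for each array except 6 h replicate 1, with an adjusted p as high as 0.166. 1558631_at read 7.28, 6.89 and 7.06 in vehicle and 6.71, 6.52 and 6.71 at 6 h, apart from vehicle but just short of the threshold (-0.43 ± 0.097, adjusted p = 0.0503). The remaining 3, 210771_at, 237142_at and 1560981_a_at, were dim, with means over all arrays of 3.94, 4.30 and 4.74 beside a lower quartile of 4.40 over all probe sets. Their 6 h changes of -0.0098, -0.13 and -0.21 did not pass and their groups overlapped; 237142_at read exactly 4.31 on 5 arrays. Across the 36 pairs of PPARA probe sets the Pearson correlation over the 9 arrays had a median of 0.57 and ran from -0.24 to 0.98, as a description of arrays that share their treatment groups. Against 6 h, 6 of the 9 rose at 24 h, by 0.43 to 0.62. The rise of 1558631_at was lost when 6 h replicate 2 was left out (adjusted p = 0.0569).

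**Figure D2:**
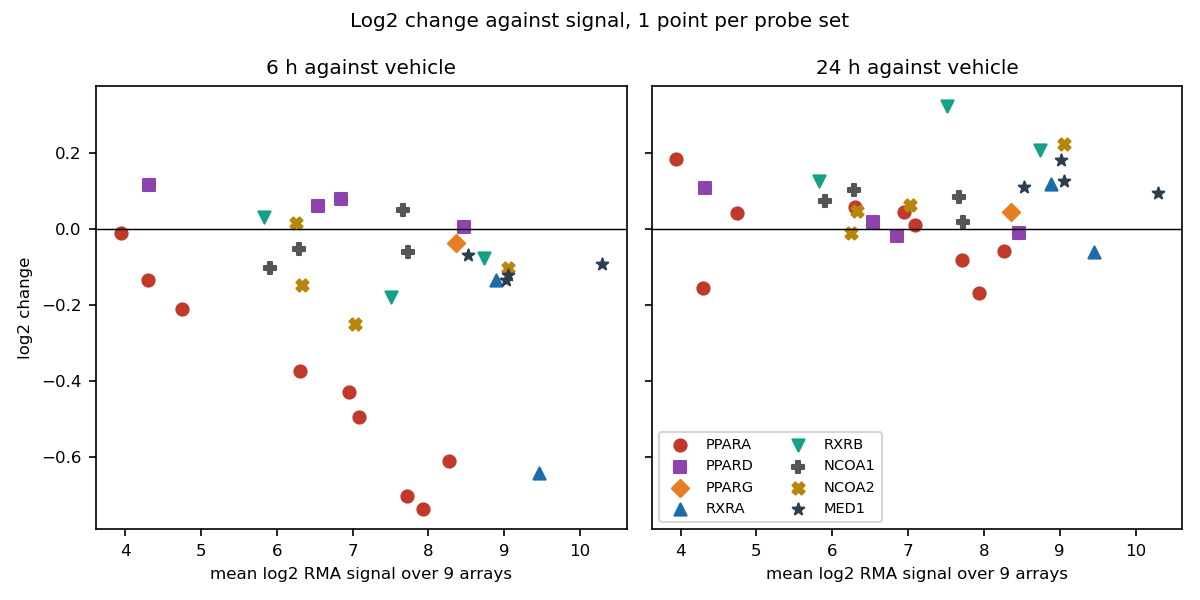
Log2 change against vehicle at 6 h (left) and 24 h (right) on the vertical axis, by the mean log2 signal over the 9 arrays, with 1 point per probe set and a symbol per gene. The 6 PPARA probe sets with a mean over 6 lie from -0.74 to -0.37 at 6 h, the 3 dim ones nearer 0, and at 24 h all 9 lie between -0.17 and 0.18.

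PPARD, which encodes the widely expressed PPARδ, read 8.38, 8.45 and 8.56 in vehicle, 8.44, 8.54 and 8.43 at 6 h and 8.46, 8.55 and 8.35 at 24 h on its reported probe set, 37152_at. The groups overlapped entirely. Its log2 change was 0.0061 ± 0.070 at 6 h (95% interval -0.15 to 0.16, adjusted p = 0.981) and -0.011 ± 0.070 at 24 h (adjusted p = 0.955), with signs that turned after median centring of the arrays. Its other probe sets, 208044_s_at, 210636_at and 242218_at, changed by 0.061 to 0.12 at 6 h and by -0.019 to 0.11 at 24 h, and none passed. Only 208044_s_at had groups that lay apart, with 24 h (6.77 to 6.83) below 6 h (6.87 to 6.95), and that difference of -0.096 did not pass either (adjusted p = 0.420).

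PPARG, which encodes PPARγ, was read by a single probe set, 208510_s_at, at 8.30, 8.39 and 8.39 in vehicle, 8.44, 8.20 and 8.32 at 6 h and 8.50, 8.38 and 8.33 at 24 h. Its groups overlapped too. The change was -0.038 ± 0.072 at 6 h (95% interval -0.20 to 0.12, adjusted p = 0.849) and 0.044 ± 0.072 at 24 h (95% interval -0.12 to 0.20, adjusted p = 0.795). To compare the receptors directly, differences between them were taken within each array. For these and later within-array differences, ± is the SE from the 3 arrays of each compared group, not from limma. The PPARA change at 6 h minus that of PPARD was -0.62 ± 0.060 log2 units, and minus that of PPARG it was -0.57 ± 0.076. All 3 arrays at 6 h lay below all vehicle arrays in both differences (exact permutation test, two-sided, p = 0.1 each, the smallest that 3 against 3 can give; 0.167 adjusted over the 15 such comparisons made).

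Of the dimer partners, RXRA fell at 6 h on 1 of its 2 probe sets. The reported one, 202449_s_at, read 9.65, 9.81 and 9.61 in vehicle, 9.05, 8.96 and 9.13 at 6 h and 9.62, 9.69 and 9.57 at 24 h. As with PPARA, the 6 h arrays stood clear below the others and the 24 h arrays overlapped vehicle. It fell 1.56-fold (95% interval 1.40 to 1.74) at 6 h, a log2 change of -0.64 that was -0.39 with both RXRA probe sets averaged. At 24 h it was -0.060 ± 0.070 from vehicle (95% interval -0.21 to 0.095, adjusted p = 0.696) and 0.58 ± 0.070 above 6 h (adjusted p = 0.000379).

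The second RXRA probe set, 202426_s_at, read 8.75, 9.01 and 8.93 in vehicle, 8.81, 8.71 and 8.77 at 6 h and 8.98, 8.98 and 9.08 at 24 h. Here the 6 h arrays overlapped vehicle, and the change of -0.14 ± 0.074 did not pass (adjusted p = 0.449). Both probe sets carry the ending _s_at, which marks probes that match several transcripts, so which RXRA transcripts changed is uncertain. Within arrays, the 6 h change of 202449_s_at minus that of 202426_s_at was -0.51 ± 0.075 log2 units, with 6 h and vehicle arrays apart (exact permutation test, two-sided, p = 0.1; 0.167 adjusted). At 24 h against 6 h, 202426_s_at had all arrays higher and a change of 0.25 that just missed the threshold (adjusted p = 0.0534). The genes closest to RXRA over the 9 arrays were WDR81 (r = 0.991), PTCHD4 (0.984) and CHKA (0.983), with 6 h changes of -0.22, -1.06 and -0.62.

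On their reported probe sets (223437_at and 202449_s_at), PPARA and RXRA changed by amounts that were not separated by these arrays. The second RXRA probe set, 202426_s_at, which changed by -0.14 at 6 h, was not tested against PPARA. Within arrays, the PPARA change at 6 h differed from that of RXRA by 0.030 ± 0.12 log2 units (exact permutation test, two-sided, p = 0.8; 0.857 adjusted), and at 24 h by 0.0024 ± 0.11 (exact permutation test, p = 1.0).

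RXRB, the second partner measured, read 8.65, 8.75 and 8.68 in vehicle, 8.65, 8.60 and 8.60 at 6 h and 8.87, 8.94 and 8.89 at 24 h on 209148_at. The 6 h arrays overlapped vehicle, and the 24 h arrays lay above both. The change was -0.075 ± 0.054 at 6 h (adjusted p = 0.547) and 0.21 ± 0.054 at 24 h (adjusted p = 0.0393). This was the call at 24 h among the 8 members (1 rose, 0 fell), where 8.17% of all genes passed, 5.38% higher and 2.8% lower. It was lost when any array except vehicle replicate 2 was left out, with the compared groups alone (0.101), and with the mean of the RXRB probe sets (0.125). Adjusted over all probe sets, 209148_at missed the threshold (0.0624). Within arrays the RXRA change minus the RXRB change was -0.57 ± 0.064 at 6 h and -0.27 ± 0.043 at 24 h, with groups apart both times (exact permutation test, two-sided, p = 0.1 each; 0.167 adjusted).

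RXRB was 0.28 ± 0.054 higher at 24 h than at 6 h (adjusted p = 0.00546). Its probe set 215099_s_at read 7.13, 7.82 and 7.43 in vehicle, the widest spread of a group in the set, then 7.25, 7.23 and 7.36 at 6 h and 7.65, 7.84 and 7.86 at 24 h. It was 0.50 ± 0.14 higher at 24 h than at 6 h (adjusted p = 0.0436), a call lost when vehicle replicate 3 or any treated array was left out, with an adjusted p as high as 0.145. 215098_at had changes of 0.031 at 6 h and 0.13 at 24 h that did not pass. The genes closest to RXRB over the 9 arrays were HSD17B2 (r = 0.987), PYCR1 (0.986) and H1-10 (0.986), which were 0.81, 0.40 and 0.28 higher than vehicle at 24 h.

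**Figure D3:**
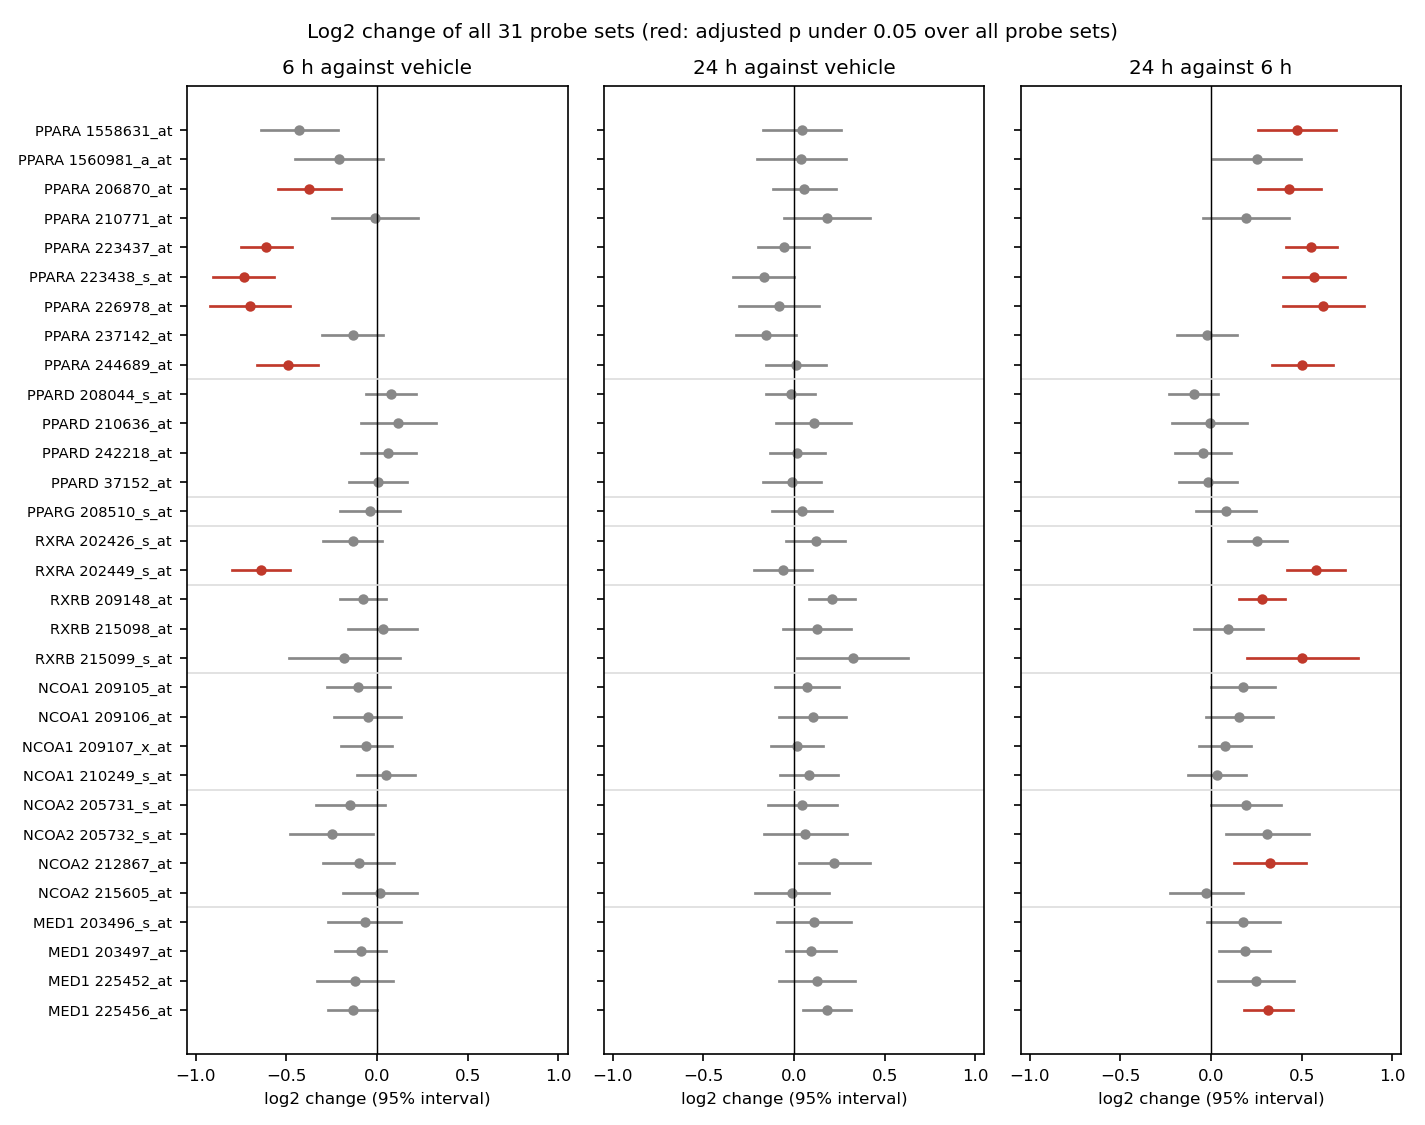
Log2 change (horizontal axis) with its 95% interval for all 31 probe sets, grouped by gene, in 3 panels (6 h and 24 h, each minus vehicle, then 24 h minus 6 h); red marks an adjusted p under 0.05 over 41091 probe sets. At 6 h the 6 red points are PPARA and RXRA, at 24 h there are 0, and of 11 red points for 24 h against 6 h 6 are PPARA.

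No coactivator member passed against vehicle at either time. NCOA1, which encodes the p160 protein SRC-1, read 7.75, 7.78 and 7.70 in vehicle, 7.59, 7.67 and 7.79 at 6 h and 7.81, 7.74 and 7.73 at 24 h on 209107_x_at. Its groups overlapped, with changes of -0.060 ± 0.062 at 6 h (adjusted p = 0.696) and 0.017 ± 0.062 at 24 h (adjusted p = 0.917). The ending _x_at marks probes that may match other genes. The other 3 probe sets gave -0.10 to 0.049 at 6 h and 0.072 to 0.10 at 24 h, none past the threshold.

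NCOA2, which encodes the related p160 protein also called TIF2 or GRIP1, read 9.19, 8.86 and 8.99 in vehicle, 8.91, 8.89 and 8.93 at 6 h and 9.12, 9.37 and 9.22 at 24 h on 212867_at. The 6 h arrays lay inside the vehicle range, and the 24 h arrays lay above all 6 h arrays but overlapped vehicle. The change was -0.10 ± 0.088 at 6 h (adjusted p = 0.626) and 0.22 ± 0.088 at 24 h (adjusted p = 0.166). Against 6 h it was 0.32 ± 0.088 higher at 24 h (adjusted p = 0.0318), a call lost after quantile normalization (0.0809); with its probe sets averaged the difference was 0.20. Leaving out a 6 h array, or 24 h replicate 2 or 3, also ended it, with an adjusted p as high as 0.118.

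The other NCOA2 probe sets only partly followed. 205732_s_at had vehicle arrays at a mean of 7.09 ± 0.13 (SD, n = 3), 6 h arrays at 6.84 ± 0.19 and 24 h arrays at 7.15 ± 0.12, in overlapping groups, with a 6 h change of -0.25 ± 0.10 (adjusted p = 0.302). 205731_s_at lay lower at 6 h (6.20 to 6.23) than in vehicle (6.28 to 6.53) on every array, yet the change of -0.15 ± 0.087 did not pass (adjusted p = 0.490). 215605_at had a 6 h change of 0.015. The genes closest to NCOA2 were TCF12 (r = 0.977), CLPX (0.967) and TSPYL4 (0.967), none of which passed against vehicle at either time.

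MED1, the Mediator subunit that contacts liganded nuclear receptors, read 10.36, 10.18 and 10.34 in vehicle, 10.19, 10.20 and 10.21 at 6 h and 10.36, 10.38 and 10.42 at 24 h on 203497_at. The 24 h arrays lay just above all others, and the 6 h arrays overlapped the lowest vehicle array. Neither change passed, at -0.091 ± 0.060 at 6 h (adjusted p = 0.509) and 0.094 ± 0.060 at 24 h (adjusted p = 0.415). All 4 MED1 probe sets had a mean below vehicle at 6 h (-0.13 to -0.069) and above it at 24 h (0.094 to 0.18), and their 6 pairs correlated at 0.68 to 0.91 over the 9 arrays. 225456_at had close 24 h values, 9.20, 9.18 and 9.18, against 9.05, 8.92 and 9.05 in vehicle and 8.93, 8.83 and 8.85 at 6 h. It was 0.32 ± 0.061 higher at 24 h than at 6 h (adjusted p = 0.00767), while its change from vehicle of 0.18 ± 0.061 did not pass (adjusted p = 0.124). At the gene level the 24 h against 6 h change of 0.19 ± 0.060 missed the threshold (adjusted p = 0.0669). In limma it passed in 6 of 18 alternatives. These were median centring (0.0406), only the compared groups (0.0289), and the fit without vehicle replicate 2 (adjusted p = 0.0234). The others were a signal-dependent robust prior (0.024), genes above the median signal (0.0214), and its probe sets averaged (0.23, adjusted p = 0.0413).

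Across the 31 probe sets, 6 fell and 0 rose at 6 h, where 2.03% of all single-symbol probe sets passed, 1.13% lower and 0.905% higher. All arrays lay below vehicle for 8 of them and above for 0, beside 9.47% and 9.2% of all probe sets. At 24 h against vehicle 0 passed in limma, where 5.66% of all probe sets did, 3.37% higher and 2.3% lower; 4 had an unadjusted p under 0.05, beside 18.6% of all probe sets. All arrays lay above vehicle for 3 and below for 1, beside 11.4% and 8.91%. At 24 h against 6 h 11 rose and 0 fell, beside 9.71% called among all probe sets, 6.2% higher and 3.51% lower. Of the 8 genes 4 rose and 0 fell, beside 13.8% called, 9.23% higher and 4.57% lower. All arrays were higher for 16 probe sets and lower for 1, beside 16.2% and 13.1% of all probe sets. The median change over the 8 genes was -0.083 at 6 h and 0.030 at 24 h, where the median over all genes was 0.0039 and 0.0034. The comparison of 24 h with 6 h uses the same 6 h arrays as the first and the same 24 h arrays as the second, so it is not a further set of samples.

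Counts for the remaining receptors and coregulators at 6 h stand beside 3.54% of all genes called, 1.64% higher and 1.91% lower. Of 20 other measured nuclear receptors, 1 rose and 0 fell: NR3C1, the glucocorticoid receptor, rose by 0.27 ± 0.059 (adjusted p = 0.0314). That call was lost when vehicle replicate 2 or 3 or a 6 h array was left out (as high as 0.107), and a probe set without shared probes gave 0.062 (adjusted p = 0.902). Of 19 other coactivators, 1 rose and 1 fell. PPARGC1A, which encodes the inducible coactivator PGC-1α, fell by 0.64 ± 0.091 (adjusted p = 0.00351), from a mean of 6.24 ± 0.14 in vehicle to 5.60 ± 0.13 (SD, n = 3 arrays); with its probe sets averaged the change was -0.31. NCOA7 rose by 0.33 ± 0.057 (adjusted p = 0.0104), a call lost when 6 h replicate 1 or 2 was left out (0.0518 and 0.0581) and with its probe sets averaged (0.0660). Of 17 other Mediator subunits, 1 rose, MED7 by 0.26 ± 0.060 (adjusted p = 0.0384). It was lost after median centring (0.0688) and when any array except vehicle replicate 3 was left out (as high as 0.152), and was 0.41 without shared probes. Of 13 other corepressors and deacetylases 0 passed in limma, and 3 had an unadjusted p under 0.05.

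At 24 h, where 8.17% of all genes passed, 5.38% higher and 2.8% lower, 3 of the 20 other nuclear receptors rose and 0 fell. NR0B2, the orphan receptor SHP that represses other nuclear receptors, rose by 0.90 ± 0.058 (adjusted p = 5.26e-06), from 9.58 ± 0.084 to 10.48 ± 0.0086 (SD, n = 3 arrays). The sterol receptor LXRα gene NR1H3 rose by 0.39 ± 0.10 (adjusted p = 0.0375) and HNF4G by 0.28 ± 0.069 (adjusted p = 0.0315); HNF4G read the same 6.75 on all 3 vehicle arrays, and the mean of its probe sets gave 0.15 (adjusted p = 0.237). Of the 19 coactivators 5 rose and 1 fell, led by CITED2 (1.17 ± 0.15, adjusted p = 0.000928), PPARGC1A (0.56 ± 0.091, adjusted p = 0.00377) and the arginine methyltransferase CARM1 (0.28 ± 0.070, adjusted p = 0.0305). MED7 was the Mediator subunit that rose among 17, by 0.23 ± 0.060 (adjusted p = 0.0418), and of 13 corepressor genes TBL1X and SIN3A rose, by 0.26 ± 0.068 (adjusted p = 0.0375) and 0.24 ± 0.060 (adjusted p = 0.0338). Neither passed after quantile normalization (0.0650 and 0.0581). Without shared probes TBL1X had -0.080, and SIN3A had 0.096 with its probe sets averaged (adjusted p = 0.310). NR0B2, CITED2 and PPARGC1A passed in every fit that left out 1 array, but with probe sets averaged the change of CITED2 was 0.67 and that of PPARGC1A 0.25. Without shared probes MED7 had 0.35. The other 6 calls named here each depended on single arrays. NR1H3 was lost when any array except vehicle replicate 2 was left out (adjusted p as high as 0.118), and MED7 when any except vehicle replicate 3 was (0.123). HNF4G was lost when a vehicle array, 6 h replicate 2, or 24 h replicate 1 or 2 was left out (0.0986). CARM1 was lost when vehicle replicate 1 or 2, 6 h replicate 3, or a 24 h array was left out (0.0869). TBL1X was lost for all arrays except vehicle replicate 1 and 24 h replicate 3 (0.126), and SIN3A for all except vehicle replicate 2 and 6 h replicates 2 and 3 (0.113).

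**Figure D4:**
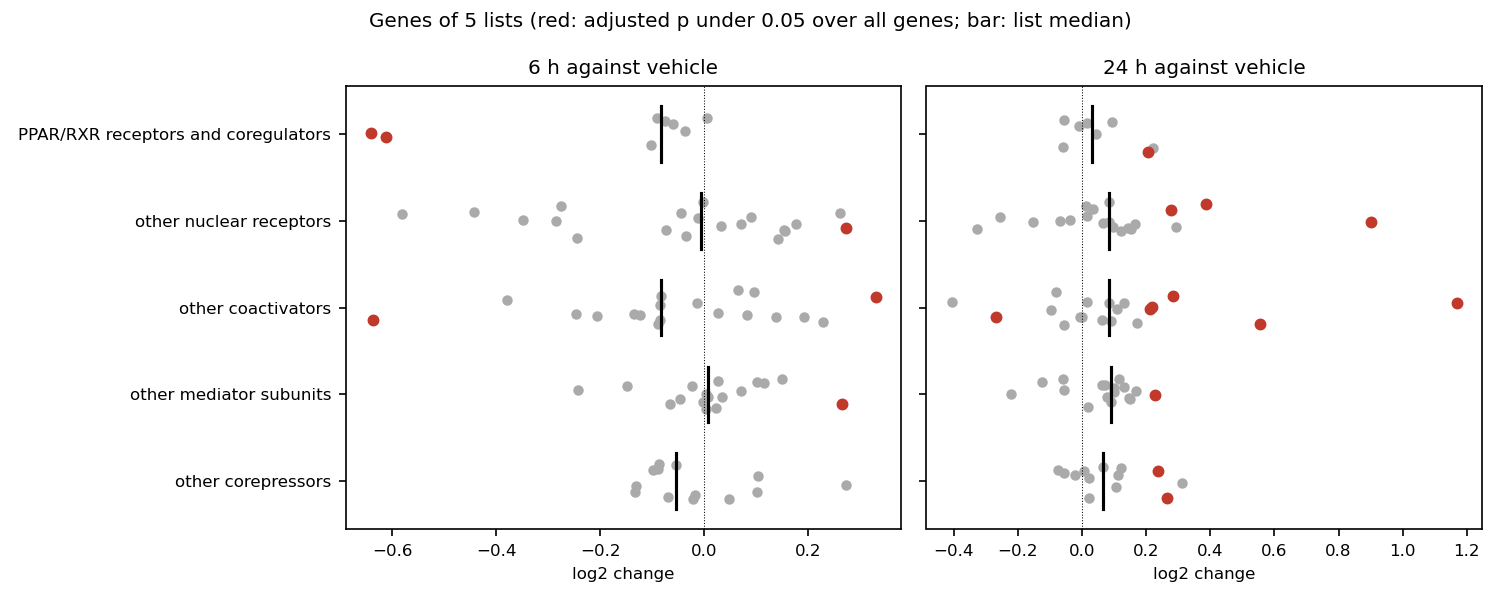
Log2 change against vehicle (horizontal axis) at 6 h and 24 h, 1 point per gene, for the 8 members and 4 lists of other receptors and coregulators; red marks an adjusted p under 0.05 over all 19775 genes and the bar is the list's median, and vertical scatter within a row has no meaning. PPARA, RXRA and PPARGC1A are the 3 red points below -0.6 at 6 h.

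Of 22 measured genes known as classical PPARα targets, 4 rose and 0 fell at 6 h, beside 3.54% of all genes called, and 9 rose and 1 fell at 24 h, beside 8.17%. PLIN2, which coats lipid droplets, rose by 1.04 ± 0.064 at 6 h (adjusted p = 8.57e-06) and 1.49 ± 0.064 at 24 h (adjusted p = 2.59e-07); with its probe sets averaged the changes were 0.48 and 0.74. SLC25A20, the carnitine carrier of mitochondria, rose by 0.33 ± 0.057 at 6 h (adjusted p = 0.00969), and ACSL1, which activates fatty acids, by 0.31 ± 0.056 (adjusted p = 0.0128). The ACSL1 call was lost when 6 h replicate 1 or 2 was left out (0.0700 and 0.0623), and a probe set without shared probes gave 0.16 (adjusted p = 0.371). CPT1A, the gate for long-chain fatty acid entry into mitochondria, rose by 0.77 ± 0.088 at 24 h (adjusted p = 0.000485). VNN1 was the target that fell at 24 h (-0.81 ± 0.067, adjusted p = 3.98e-05). The means of VNN1 were 6.73 in vehicle, 7.03 at 6 h and 5.92 at 24 h. Those of ACSL1 were 10.27, 10.58 and 10.10, so the means of both lay above vehicle at 6 h and below it at 24 h. The ACSL1 change at 24 h did not pass. Median changes of the list were 0.073 at 6 h and 0.18 at 24 h, where those of all genes were 0.0039 and 0.0034.

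Liver markers moved slightly with the same groups. The mean log2 signal of the 11 liver markers was 13.28 to 13.32 on the vehicle arrays, 13.21 to 13.23 at 6 h and 13.19 to 13.22 at 24 h. At 6 h FOXA2, a liver transcription factor, fell by 0.34 ± 0.062 (adjusted p = 0.0132). That call was lost when 6 h replicate 2 was left out (0.0720), with its probe sets averaged (0.142), and on a probe set without shared probes (0.293). At 24 h FGB, a fibrinogen chain, and TTR, transthyretin, fell by 0.67 ± 0.059 (adjusted p = 6.87e-05) and 0.55 ± 0.073 (adjusted p = 0.00116). FOXA2 rose by 0.25 ± 0.062 (adjusted p = 0.0290), a call lost with its probe sets averaged (0.0968) and when a vehicle array or 24 h replicate 1 or 2 was left out (as high as 0.0983). The mean of the 17 markers of other liver cells overlapped between all groups (5.44 to 5.55 over all arrays), and 0 passed in limma, with 0 at 6 h and 2 at 24 h at an unadjusted p under 0.05. The part of these shifts in the results on PPARA and RXRA was not tested.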

How the data were processed

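The deposited log2 probe set signals of 9 arrays were used unchanged. RMA, which corrects background, normalizes arrays and summarises probes, was used by the authors, per the submitters' processing notes; its version, software and chip definition are not stated there. The deposited log2 values ran from 2.66 to 15.0, with array medians of 5.61 to 5.68 and 0 missing values.

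Probe sets with exactly 1 symbol and no control probe sets were kept (41091). Each of 19775 genes was represented by its probe set of highest mean, and every probe set was also fitted on its own. The 3 group means were estimated from the 9 arrays together in limma 3.58.1 (R 4.3.3) by lmFit and eBayes, two-sided, with Benjamini-Hochberg adjustment over all genes or all probe sets, called under 0.05 and with no signal filter. The fit was tested on simulated data. Within-array differences between members used exact permutation tests, whose smallest p is 0.1.

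Samples were grouped by their labels. Replicate numbers were left out of the model, because the labels do not tie equal numbers together; same-numbered arrays had deviations that correlated at -0.17 to 0.085. Members and lists were chosen with earlier results of these data known. Named were all members, up to 3 called genes with the largest change per list and comparison with vehicle, and the 3 genes closest to each called member. Of the listed genes, 17 were not analysed here. Promoter windows were matched by symbol to RefSeq, for 8 of the 9 members. NCOR1 was among them, while NCOA2 was left out, so no motif result covers it. Each result was also computed after quantile normalization or median centring, with the mean of a gene's probe sets or without those with shared probes, above the median signal, at an adjusted p under 0.01, with a signal-dependent robust prior, on 2 groups at a time, blocked by replicate number, and with each array left out.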

Additional observations from a re-analysis of the deposited data

Results flagged for a closer look

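The effects at 6 h and at 24 h, each against the same vehicle arrays, differed by limma's test of 24 h against 6 h for 4 genes on their reported probe sets. The difference was 0.55 log2 units for PPARA, 0.58 for RXRA, 0.28 for RXRB and 0.32 for NCOA2. In the fit of single probe sets it also passed for 5 further PPARA probe sets, at 0.47 (1558631_at), 0.43 (206870_at), 0.57 (223438_s_at), 0.62 (226978_at) and 0.50 (244689_at). It passed for RXRB 215099_s_at at 0.50 and for MED1 225456_at at 0.32. With 1 of the 9 arrays left out, the difference did not pass in 7 fits for RXRB 215099_s_at and in 5 for NCOA2.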

How the results depend on the processing

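PPARA and RXRA kept their direction and their call at 6 h, and for 24 h against 6 h, in every alternative that measured them; both RXRA probe sets drop out without shared probes, which left 1 member called at 6 h in place of 2. PPARA changed by -0.65 to -0.41 at 6 h and RXRA by -0.68 to -0.39. The 1 member called at 24 h (RXRB) became 0 with the replicate number as a block, with only the compared groups, at an adjusted p under 0.01, without shared probes and with probe sets averaged. Member probe sets called at 24 h went from 0 to 1 with an intensity trend and robust prior and to 2 above the median signal, and for 24 h against 6 h from 11 to 7 at an adjusted p under 0.01. With 1 array left out, members called were 2 at 6 h in every fit, 0 to 1 at 24 h and 3 to 5 for 24 h against 6 h; member probe sets called were 5 to 6, 0 to 2 and 8 to 13.

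All genes called at 6 h were 701, and 427 with the replicate block, 454 with only the compared groups, 1104 with a trend and robust prior, 1206 above the median signal, 234 at an adjusted p under 0.01, 454 without shared probes and 261 to 637 with 1 array left out. At 24 h they were 1616, and 921 with only the compared groups, 695 at 0.01 and 1005 to 1664 with 1 array left out. For 24 h against 6 h they were 2729, and 1328 at 0.01, 1774 without shared probes and 1519 to 3082 with 1 array left out; 1826 were higher and 903 lower, against 1457 and 1207 after quantile normalization.

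Of the members' values, those whose sign turned had not passed. PPARD became -0.012 at 6 h, 0.0040 at 24 h and 0.016 for 24 h against 6 h after median centring, and 0.024 at 24 h with probe sets averaged, as RXRA became 0.030. With 1 array left out, PPARD ranged from -0.035 to 0.052 at 6 h, -0.060 to 0.041 at 24 h and -0.067 to 0.035 for 24 h against 6 h, PPARG from -0.097 to 0.022 at 6 h and -0.0061 to 0.079 at 24 h, and NCOA1 from -0.0075 to 0.033 at 24 h. The called TBL1X rise became -0.080 without shared probes. No same-numbered pair of arrays correlated above 0.1, while differently numbered pairs ran from -0.21 to 0.21. With so few arrays this cannot decide whether the numbers pair the samples. With the replicate block RXRB at 24 h had an adjusted p of 0.0817 and NCOA2 at 24 h against 6 h 0.0594 in limma. Values near the dim end, where 3 PPARA probe sets and 1 of PPARD lie, carry little information on change. The causes of these shifts were not tested.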
